A study of Mus musculus with 6 samples.

Results

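The genes followed here are 10 members of the route from the receptor RANK to the transcription factor NFATc1, measured in osteoclast precursors (OCPs) that lack *lincRNA-EPS*. They are *Tnfrsf11a*, *Traf6*, *Traf3*, *Map3k7*, *Tab2*, *Nfatc1*, *Ppp3ca*, *Ppp3r1*, *Camk4* and *Rcan1*, taken by gene name as the core of this signalling route, 10 of the 57180 genes in the count table. All 10 were listed, and 9 passed the expression filter and were tested among 13428 genes. *Camk4* did not pass.

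OCPs were grown from bone marrow of wild-type (WT, C57BL/6) mice and of *lincRNA-EPS*-/- (KO) mice, which lack a long noncoding RNA of macrophages, with 3 separate cultures per genotype. Both genotypes had the same treatment, 40 ng/ml of M-CSF for 24 h and then 40 ng/ml of RANKL for another 48 h, and the labels name the cells bone marrow-derived macrophages. RNA was sequenced once per culture, and the comparison asks what the loss of *lincRNA-EPS* did to transcript levels in RANKL-primed cells. Every library came from cells that had received RANKL, so levels before RANKL are not part of the comparison.

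RANK is the receptor by which RANKL turns a macrophage precursor into an osteoclast. It has no enzyme activity of its own and recruits the adaptor TRAF6, which activates the kinase TAK1 with its TAB partners and, through it, NF-κB and the MAP kinases, while TRAF3 restrains the noncanonical NF-κB branch. In parallel, calcium signals activate the phosphatase calcineurin, which dephosphorylates NFATc1, lets it enter the nucleus and drive osteoclast genes and its own transcription, with CaMKIV and CREB acting beside it and RCAN1 restraining calcineurin.

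*Rcan1* has start sites in RefSeq that lie 66091 bases apart, and the gene-level counts sum transcripts from both, so the 250 bases before each start are shown. Sequences are from RefSeq on GRCm38.p6, 5′ to 3′ in the direction of transcription, and capitals mark matches to GGAAA, the core that NFAT proteins bind, on either strand (read as TTTCC on the other one). Position -1 is the base before the start. The downstream start, chr16:92400079-92400328 on the minus strand, has 3 matches that begin at -227, -193 and -163, and the upstream start, chr16:92466170-92466419 on the minus strand, has 0.
Rcan1 downstream start: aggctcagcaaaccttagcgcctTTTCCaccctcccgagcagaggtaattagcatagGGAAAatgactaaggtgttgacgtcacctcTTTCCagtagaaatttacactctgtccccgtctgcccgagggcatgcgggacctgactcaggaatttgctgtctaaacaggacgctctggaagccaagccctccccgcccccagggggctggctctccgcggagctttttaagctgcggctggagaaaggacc
Rcan1 upstream start: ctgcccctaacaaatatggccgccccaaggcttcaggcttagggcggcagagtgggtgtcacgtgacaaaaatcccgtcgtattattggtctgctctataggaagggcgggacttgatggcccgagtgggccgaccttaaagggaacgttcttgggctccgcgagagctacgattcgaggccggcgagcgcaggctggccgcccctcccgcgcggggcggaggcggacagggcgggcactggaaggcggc
GGAAA on either strand is present in 55.6% of the 32851 windows of this length in the table, so a match by itself is common.

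Of the 10 genes, 7 have such windows that can be shown here (*Tnfrsf11a*, *Traf6*, *Traf3*, *Map3k7*, *Tab2*, *Ppp3r1* and *Rcan1*), and *Tab2* has 2 windows as *Rcan1* does. The κB motif, which NF-κB proteins bind, was searched on both strands and is found in 3.9% of all windows. It is found here before *Traf3* and before *Map3k7*, and these are the only member windows that hold it, so both are shown. In *Traf3*, chr12:111166120-111166369 on the plus strand, the κB match begins at -10 and covers a GGAAA match that begins at -5, and another GGAAA match begins at -245. In *Map3k7*, chr4:31963857-31964106 on the plus strand, the κB and GGAAA matches both begin at -92 and overlap.
Traf3: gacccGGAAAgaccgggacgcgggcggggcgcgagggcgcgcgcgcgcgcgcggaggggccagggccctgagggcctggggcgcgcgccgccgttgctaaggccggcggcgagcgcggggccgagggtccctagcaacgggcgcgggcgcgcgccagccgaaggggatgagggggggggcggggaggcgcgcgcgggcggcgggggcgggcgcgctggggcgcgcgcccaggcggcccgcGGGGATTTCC
Map3k7: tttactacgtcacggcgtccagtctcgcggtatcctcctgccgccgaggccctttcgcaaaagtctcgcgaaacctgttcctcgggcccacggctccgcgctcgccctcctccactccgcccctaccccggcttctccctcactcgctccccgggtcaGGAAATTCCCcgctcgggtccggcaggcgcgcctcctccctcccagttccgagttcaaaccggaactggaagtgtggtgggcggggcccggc
A match describes the letters in these windows and says nothing of binding in these cells.

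The libraries held 17757351 to 19998611 counts, and in KO replicate 2 *Rn18s-rs5*, an 18S ribosomal RNA-related gene, took the largest share, 2.71%. *LincRNA-EPS*, listed as *Ttc39aos1*, had 20, 37 and 41 counts in the WT libraries and 0 in all 3 KO libraries, as the labels say. Its log2 fold change was -8.03 with an adjusted p of 0.120 in edgeR's quasi-likelihood test, so the deleted gene itself did not pass the limits used below. Levels are normalised counts (CPM), counts per 1000000 counts of the genes tested after TMM scaling. The 8 macrophage markers summed to 15000 to 17841 CPM over all libraries, most of it *Lyz2*, and without *Lyz2* to 3734 to 4118 CPM in WT and 3393 to 3498 CPM in KO. In 5 of them (*Csf1r*, *Adgre1*, *Itgam*, *Mertk* and *Cd14*) KO lay below WT without overlap, against 18.8% of all genes tested. The 7 osteoclast markers summed to 2258 to 2439 CPM in WT and to 3531 to 3757 CPM in KO, and the neutrophil markers to 1352 to 1527 and 1773 to 2143 CPM. Of 9 neutrophil markers tested, 5 lay above WT without overlap, and *Mpo* and *Elane* lay below, against 16.9% and 18.8% of all genes tested. The part of cell composition in any result below was not tested, and in bulk RNA fewer cells of a type cannot be told apart from less RNA per cell. Fold changes were correlated with the GC content of the genes, with Pearson's r = -0.51 across 13176 genes, which are not independent replicates. KO replicate 3 and WT replicate 2 stood at opposite ends of this trend, so GC-corrected values are given beside the others.

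None of the 9 members tested was differentially expressed between KO and WT OCPs at an adjusted p under 0.01 and a fold change above 1.3 (edgeR's quasi-likelihood test, Benjamini-Hochberg adjustment). These limits called 0.00745% of all genes tested, which is 1 gene, *Dtx3l*, lower in KO and outside the pathway lists. At an unadjusted p under 0.05 the members gave 1 gene, *Ppp3r1*, against 26.2% of all genes tested. DESeq2 called 0 of the members too, against 1.12% of the 10836 genes to which it gave an adjusted p. With the GC correction edgeR called 0 members at these limits, against 0.0223% of all genes, and 0 at an adjusted p under 0.05 with any fold, against 0.983%. At an unadjusted p under 0.05 it then gave 1 member, *Traf3*, against 25.8% of all genes, and DESeq2 with the correction called 0 members, against 3.21% of 10562 genes. The median log2 fold change (KO minus WT) was 0.07 over the 9 members and 0.0091 over all genes tested, with 7 members above 0 and 2 below. After GC correction the median was -0.0043 for the members and -0.0061 for all genes, with 4 above 0 and 5 below.

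**Figure D1:**
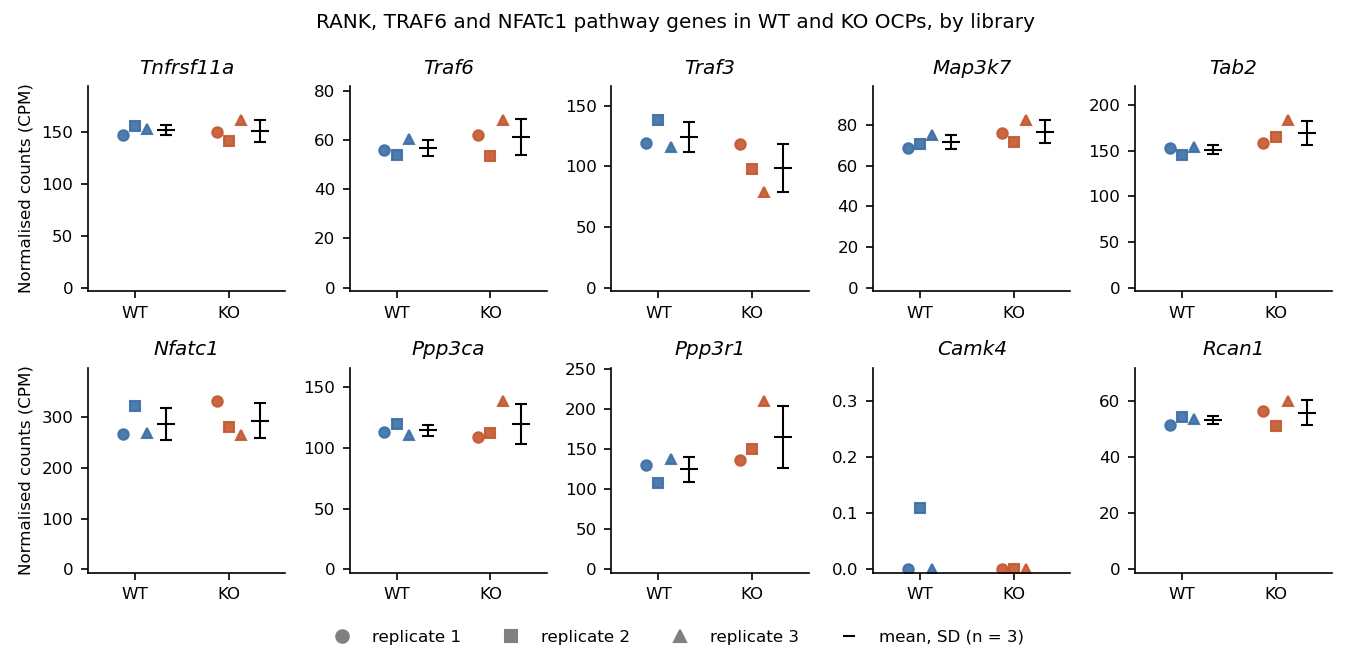
Normalised counts (CPM, vertical axis from 0, scaled per gene) of the 10 genes in each library, WT in blue and KO in orange, with the mean and SD of 3 libraries beside the points (not drawn for *Camk4*). Only the *Tab2* libraries separate by genotype, *Ppp3r1* and *Traf3* differ most between KO libraries, and *Camk4* is at or near 0.

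The intervals say how large a difference the data leave room for. For 7 of the 9 members the 95% interval of the fold change lay within 1.3-fold in either direction, against 20.3% of all genes tested. The exceptions were *Traf3* and *Ppp3r1*. It was again 7 of 9 with the GC correction, against 40.1% of all genes, and the exceptions were *Traf3* and *Rcan1*.

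KO replicate 3 was the highest of the 6 libraries for 7 members and the lowest for the other two, *Traf3* and *Nfatc1*, so it was at an end of the range for all 9. Over all genes tested it was at an end for 67.2%. After the GC correction it was at an end for 5 members, 55.6%, and for 51.3% of all genes.

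*Tnfrsf11a* (ENSMUSG00000026321, chromosome 1) encodes RANK, the receptor that binds RANKL. Its normalised counts were 147, 155 and 153 CPM in WT replicates 1, 2 and 3 and 149.7, 141 and 162 CPM in the KO replicates. KO replicate 2 was the lowest and KO replicate 3 the highest library, and the WT values lay between them. The mean was 152 ± 4.52 CPM in WT and 151 ± 10.5 CPM in KO (SD, n = 3). The log2 fold change was -0.0088 with a standard error of 0.09 and a 95% interval of -0.21 to 0.20, and edgeR's quasi-likelihood test gave a Benjamini-Hochberg adjusted p of 0.957. As a ratio of KO to WT, that interval runs from 0.862 to 1.15. The GC-corrected log2 fold change was -0.06.

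*Traf6* (ENSMUSG00000027164, chromosome 2), the adaptor and ubiquitin ligase that RANK recruits, had 55.9, 53.7 and 60.4 CPM in WT and 61.8, 53.5 and 68.2 CPM in KO. The genotypes overlapped, with KO replicate 2 the lowest and KO replicate 3 the highest. The log2 fold change was 0.11 with a standard error of 0.11 and an interval of -0.15 to 0.37 (edgeR's quasi-likelihood test, adjusted p = 0.543). The GC correction brought it to -0.0043 with an interval of -0.19 to 0.18, which turned its sign.

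*Traf3* (ENSMUSG00000021277, chromosome 12) encodes the adaptor that keeps the kinase NIK (*Map3k14*) low and so restrains noncanonical NF-κB. It had 119, 138 and 116 CPM in WT and 119, 97.6 and 79.2 CPM in KO. KO replicate 1 lay among the WT values, and the other two KO libraries lay below all of them. The log2 fold change was -0.34 with a standard error of 0.15 and an interval of -0.68 to 0.00068, and the adjusted p was 0.192 in edgeR's quasi-likelihood test. This was the lowest log2 fold change among the members. It was -0.23 with the GC correction (interval -0.46 to -0.00038, adjusted p = 0.193 in edgeR). It ranged from -0.49 without KO replicate 1 to -0.20 without KO replicate 3, and was -0.12 when both libraries at the ends of the GC trend were left out.

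The kinase complex below TRAF6 was represented by *Map3k7*, which encodes TAK1, and *Tab2*, which encodes the subunit that binds ubiquitin chains and brings TAK1 to TRAF6. *Map3k7* (ENSMUSG00000028284, chromosome 4) had 68.5, 70.3 and 75.2 CPM in WT and 75.9, 71.5 and 82.5 CPM in KO. The groups overlapped, and the log2 fold change was 0.10 ± 0.10 (SE), with an adjusted p of 0.499 in edgeR's quasi-likelihood test. It was -0.03 with the GC correction.

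*Tab2* (ENSMUSG00000015755, chromosome 10) had 153, 146 and 154 CPM in WT and 159, 165 and 184 CPM in KO. All 3 KO libraries lay above all 3 WT libraries, and it was the only member whose groups did not overlap. Across all genes tested 35.7% had groups that did not overlap, 16.9% with KO above WT. The mean was 151 ± 4.67 CPM in WT and 169 ± 13.2 CPM in KO (SD, n = 3), and the log2 fold change of 0.16 ± 0.09 (SE, interval -0.05 to 0.37) did not pass the test, with an adjusted p of 0.279 in edgeR. After GC correction the groups still did not overlap and the log2 fold change was 0.13 (adjusted p = 0.269 in edgeR). Without the correction and leaving out 1 library, it ranged from 0.099 without KO replicate 3 to 0.21 without KO replicate 1. It was 0.073 when both libraries at the ends of the GC trend were left out.

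Calcineurin is a catalytic subunit joined to a regulatory subunit. *Ppp3ca* (ENSMUSG00000028161, chromosome 3), the catalytic subunit A alpha, had 113, 119 and 110.4 CPM in WT and 108, 112 and 138 CPM in KO. KO replicate 1 lay below the WT values, KO replicate 2 among them and KO replicate 3 above them. The log2 fold change was 0.06 ± 0.11 (SE, interval -0.19 to 0.32, adjusted p = 0.728 in edgeR's quasi-likelihood test). It was -0.06 with the GC correction.

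*Ppp3r1* (ENSMUSG00000033953, chromosome 11), the calcium-binding regulatory subunit B, had the highest log2 fold change among the members. Its normalised counts were 129.8, 107 and 138 CPM in WT and 136, 150.03 and 209.6 CPM in KO. KO replicate 1 lay within the WT range and KO replicate 3 was far above the other libraries. The log2 fold change was 0.40 with a standard error of 0.17 and an interval of 0.02 to 0.79. The unadjusted p was 0.0414 and the Benjamini-Hochberg adjusted p 0.178 in edgeR's quasi-likelihood test, so it did not pass the limits. At 41.4% its GC content was the lowest of the members, at the 12.0th percentile of the genes tested, and the GC trend fitted to KO replicate 3 at that GC content was 0.32 on the log2 scale. The GC-corrected log2 fold change was 0.15 (interval -0.04 to 0.35, adjusted p = 0.287 in edgeR), and without the correction it was 0.10 when both libraries at the ends of the trend were left out. Leaving out 1 library, it ranged from 0.19 without KO replicate 3 to 0.53 without KO replicate 1. In GENCODE M21 on GRCm38 it shares 462 exonic bases with *Wdr92* on the same strand, so its estimated counts depend on how reads of both genes were divided.

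*Nfatc1* (ENSMUSG00000033016, chromosome 18) encodes the transcription factor at the end of the route. It had 267, 324 and 269 CPM in WT and 332, 282 and 266 CPM in KO. The groups overlapped fully, with the highest and the lowest library both from KO. The mean was 287 ± 32.0 CPM in WT and 293 ± 34.4 CPM in KO (SD, n = 3), and the log2 fold change was 0.03 with a standard error of 0.12 and an interval of -0.24 to 0.31 (edgeR's quasi-likelihood test, adjusted p = 0.872). *Nfatc1* has a GC content of 53.7%, and with the GC correction its log2 fold change was 0.17 with an interval of -0.0045 to 0.35 and an adjusted p of 0.203 in edgeR. After that correction the WT libraries had 262, 293 and 262 CPM and the KO libraries 329, 285 and 306 CPM. WT replicate 2 then lay within the KO range and the other WT libraries below it. Without the correction, the value was 0.19 when both libraries at the ends of the GC trend were left out (adjusted p = 0.230 in edgeR) and -0.06 without KO replicate 1.

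*Camk4* (ENSMUSG00000038128, chromosome 18), the calmodulin-dependent kinase that phosphorylates CREB, had 2 counts in WT replicate 2 and 0 in the other 5 libraries. The limit that a count of 0 allows, taken as 3 counts, was 0.150 to 0.169 CPM, so its level was not detectable at this depth and no fold is given. It was listed at 0 or near it in both genotypes, while other calmodulin-dependent kinases were measured.

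*Rcan1* (ENSMUSG00000022951, chromosome 16), a feedback inhibitor of calcineurin and itself an NFAT target, had 51.6, 54.4 and 53.5 CPM in WT and 56.2, 51.0 and 59.8 CPM in KO. The WT libraries lay within the KO range. The log2 fold change was 0.07 ± 0.10 (SE, interval -0.15 to 0.29, adjusted p = 0.670 in edgeR's quasi-likelihood test). With a GC content of 54.5%, the highest of the members, it moved to 0.24 with the GC correction (interval -0.012 to 0.49, adjusted p = 0.212 in edgeR). KO replicate 3 was the highest library after correction, at 70.6 CPM against 55.6 and 51.6 CPM in the other KO libraries. Transcripts from its start with GGAAA matches and from the other start cannot be told apart in these counts.

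**Figure D2:**
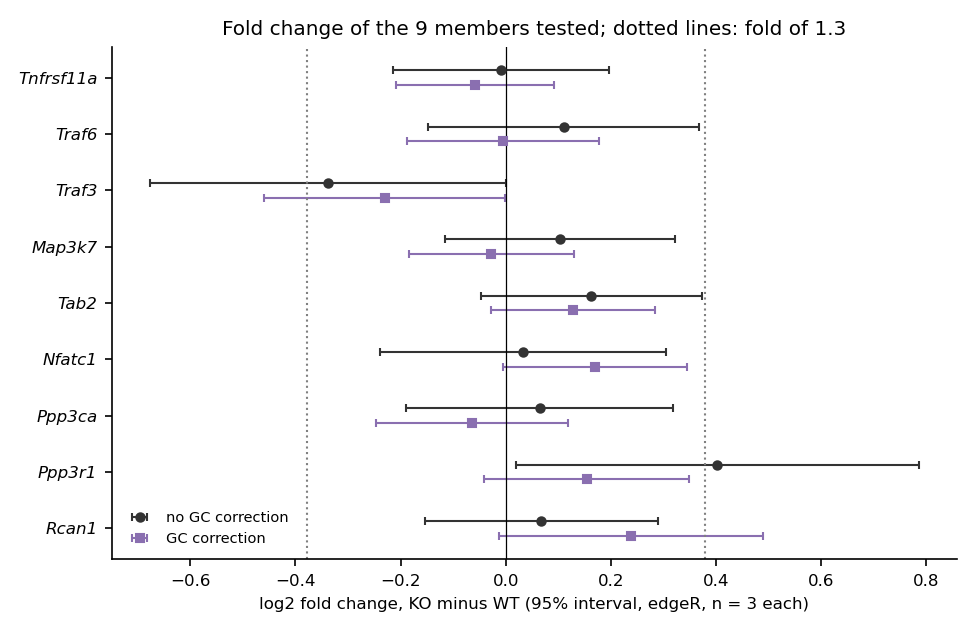
Log2 fold change (KO minus WT, horizontal axis) of the 9 members tested with its 95% interval, without (circles) and with (squares) the GC correction, from edgeR with 3 libraries per genotype. Dotted lines mark a fold change of 1.3, and only *Traf3* and *Ppp3r1* without the correction, and *Traf3* and *Rcan1* with it, reach past them.

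Levels were compared between members per length, as CPM per kb of the longest transcript. In WT the order was *Nfatc1* at 59.7 ± 6.67, *Ppp3r1* at 43.7 ± 5.54, *Tab2* at 34.5 ± 1.07, *Tnfrsf11a* at 30.2 ± 0.899, *Ppp3ca* at 24.0 ± 0.946, *Rcan1* at 22.9 ± 0.620, *Traf3* at 17.6 ± 1.74, *Map3k7* at 12.4 ± 0.601 and *Traf6* at 9.19 ± 0.551 CPM per kb (SD, n = 3). Among these neighbours only *Ppp3ca* and *Rcan1* overlapped between libraries. In KO the order of the means was the same, from *Nfatc1* at 61.1 to *Traf6* at 9.92 CPM per kb. More neighbours overlapped there, namely *Nfatc1* with *Ppp3r1*, *Tnfrsf11a* with *Ppp3ca*, *Ppp3ca* with *Rcan1*, and *Traf3* with *Map3k7*. The transcription factor was thus the most abundant transcript per length and the adaptor TRAF6 the least abundant of those tested. The order depends on the length used, since with the median length of coding transcripts *Tab2*, at 65.4 CPM per kb in WT, came above *Nfatc1*, at 62.4.

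Within their families the members differed in rank. *Nfatc1* made up 69.6% ± 2.38 of the NFAT family per length in WT and 71.9% ± 2.40 in KO (SD, n = 3), followed by *Nfatc3* at 17.3% and 16.7%. *Nfatc2*, a family member activated by calcineurin as NFATc1 is, had 24.6, 31.4 and 25.6 CPM in WT and 20.8, 17.3 and 19.1 CPM in KO. Its groups did not overlap, and its log2 fold change of -0.51 ± 0.13 (SE) had an adjusted p of 0.147 in edgeR's quasi-likelihood test. GC-corrected, it was at -0.31. Its share of the family was 4.63% in WT and 3.29% in KO. With the median coding length these shares were 8.68% and 6.31%, and those of *Nfatc1* 54.7% and 57.8%.

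*Ppp3ca* and *Ppp3cb*, which encode alternative catalytic subunits of calcineurin, together made up most of the catalytic transcript. *Ppp3ca* held 50.9% ± 3.45 of the catalytic subunits per length in WT and 47.2% ± 1.02 in KO, and *Ppp3cb* held 41.2% and 44.7%. The third subunit gene, *Ppp3cc*, was at 7.96% and 8.07%. *Ppp3r2*, the other regulatory subunit gene, had 0 counts in every library, so *Ppp3r1* was the only regulatory subunit detected.

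*Tab2* made up 71.8% ± 3.17 of the TAB genes per length in WT and 77.4% ± 3.24 in KO. *Tab1* and *Tab3*, which encode the other TAK1 partners, had log2 fold changes of -0.43 and 0.33, with groups that did not overlap and adjusted p of 0.161 and 0.164 in edgeR's quasi-likelihood test. GC-corrected values were -0.14 and 0.10. Among *Traf1*, *Traf2*, *Traf3*, *Traf5* and *Traf6* per length, *Traf1* held the largest share, 46.7% in WT and 48.0% in KO. *Traf3* held 21% ± 1.16 and 17.3% ± 2.26 and *Traf6* 11.0% ± 1.05 and 12.5% ± 2.16. *Rcan1* held 73.6% of the RCAN genes per longest transcript in WT, but 29.4% with the median coding length, where *Rcan3* held 70.3%. Of the calmodulin-dependent kinases measured beside *Camk4*, *Camk1* was at 39.4 and 34.0, *Camk2d* at 13.6 and 14.6 and *Camk2g* at 9.35 and 8.21 CPM per kb in WT and KO. With the median coding length the WT values were 87.6, 18.4 and 42.1, which turns the order of the last pair.

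**Figure D3:**
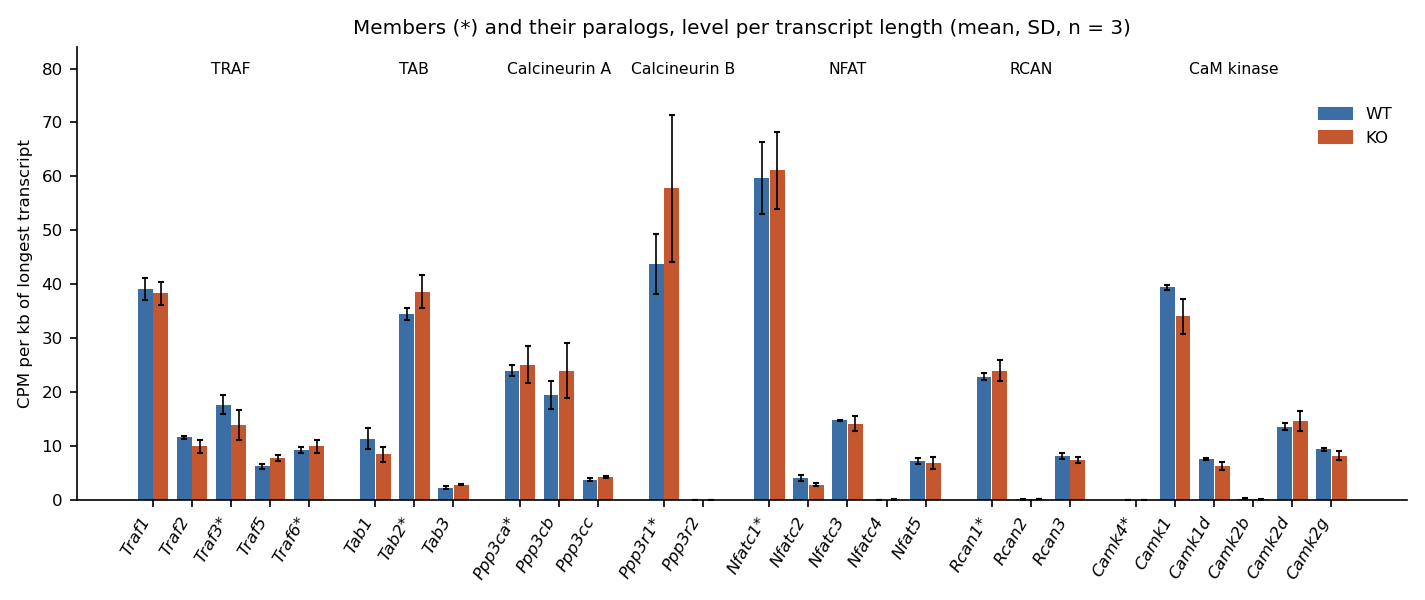
Mean level per length (CPM per kb of the longest transcript) of the members (asterisks) and their paralogs, WT in blue and KO in orange, with SD of 3 libraries. *Nfatc1* stands above its NFAT paralogs in both genotypes, *Ppp3ca* and *Ppp3cb* are close, and the order within the RCAN genes turns when the median coding length is used.

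The wider pathway was described by 5 lists with 107 genes, of which 102 were tested. None passed the limits in edgeR, against 0.00745% of all genes tested. At an unadjusted p under 0.05, 15 were higher and 22 lower in KO, against 13% and 13.2% of all genes tested. DESeq2 called 5 higher and 1 lower, against 1.12% of all genes in either direction, and edgeR with the GC correction called 1, *Dcstamp*, against 0.0223% of all genes.

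Of 33 genes tested that act with RANK, TRAF6 and TAK1, 6 were higher and 5 lower at an unadjusted p under 0.05, against 26.2% of all genes in either direction. After GC correction 2 were higher and 2 lower, against 25.8%. In 16 the groups did not overlap, 7 with KO above WT and 9 below, against 35.7% of all genes. Their median log2 fold change was -0.03, and 0.02 with the GC correction. Without the GC correction the lowest p belonged to *Ube2n*, the ubiquitin-conjugating enzyme that works with TRAF6, at 99.5, 82.2 and 95.4 CPM in WT and 104, 128 and 145 CPM in KO. Its log2 fold change was 0.45 ± 0.14 (SE, adjusted p = 0.147 in edgeR), and 0.19 with the GC correction. With the correction the lowest p of the list was that of *Src*, at a log2 fold change of 0.31 (adjusted p = 0.0639 in edgeR), and -0.03 without it. *Map3k14*, the NIK kinase that TRAF3 holds down at the protein level, had 26.5, 39.9 and 26.8 CPM in WT and 24.8, 19.95 and 15.3 CPM in KO, a log2 fold change of -0.63 ± 0.21 (SE, adjusted p = 0.149 in edgeR). It was -0.32 with the GC correction. *Mapk8*, *Traf5* and *Birc2* had log2 fold changes of 0.33, 0.32 and 0.36 and *Akt1* one of -0.36, all with groups that did not overlap and none past the test (adjusted p of 0.151 to 0.161 in edgeR). After GC correction *Mapk8* was at 0.06, *Traf5* at 0.07, *Birc2* at 0.17 and *Akt1* at 0.02.

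The 26 genes of calcium and calmodulin kinase signalling had a median log2 fold change of -0.21, and -0.15 with the GC correction. At an unadjusted p under 0.05, 2 were higher and 7 lower, against 13.2% of all genes tested that were lower, and after GC correction 1 was higher and 8 lower, against 25.8% in either direction. In 13 of them KO lay below WT without overlap, against 18.8% of all genes, and in 2 above. *Camkk2*, the kinase that activates CaMKI and CaMKIV, had 95.3, 108 and 92.8 CPM in WT and 78.1, 70.9 and 68.0 CPM in KO. Its log2 fold change was -0.45 ± 0.10 (SE), with an adjusted p of 0.147 in edgeR's quasi-likelihood test, and -0.33 with the GC correction (adjusted p = 0.0592 in edgeR). *Stim1*, the calcium sensor of the endoplasmic reticulum, and *Itpr1*, a calcium release channel, had -0.37 and -0.40, and the phospholipases *Plcg2* and *Plcg1* had -0.36 and -0.30. *Tmem64*, a regulator of the calcium pump SERCA2, had 0.47. GC-corrected, these were -0.20, -0.40, -0.20, -0.15 and 0.33, and none passed the test.

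Among 19 tested genes of calcineurin, the NFAT family and their regulators, 5 were lower and 0 higher at an unadjusted p under 0.05, against 13.2% of all genes lower. After GC correction 2 were higher and 7 lower, against 25.8% of all genes in either direction. The median was -0.07, and -0.18 with the GC correction. Beside *Nfatc2*, these were *Homer3* at -0.55, *Akap13* at -0.39, *Dyrk1b* at -0.66 and *Cabin1* at -0.51. GC-corrected, these genes were at -0.19, -0.35, -0.18 and -0.29. *Cabin1*, an inhibitor of calcineurin, had overlapping groups, with 99.8 to 135 CPM in WT and 59.0 to 99.8 CPM in KO. *Dyrk1b* belongs to a family of kinases that phosphorylate NFAT. *Fkbp1a*, which encodes the binding protein of the calcineurin inhibitor FK506, had 0.25, and 0.44 with the GC correction. None passed the test (adjusted p of 0.147 to 0.206 in edgeR).

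The 14 listed target genes of NFATc1 had the highest median of the lists, 0.33, and 0.39 with the GC correction. At an unadjusted p under 0.05, 7 were higher and 0 lower in KO, against 13% of all genes higher, and 8 lay above WT without overlap, against 16.9%. Without the GC correction none passed the limits in edgeR with all 6 libraries, while DESeq2 called 5 higher, against 1.12% of all genes in either direction. *Dcstamp*, which is needed for osteoclast fusion, had 118, 109 and 119 CPM in WT and 193, 199 and 228 CPM in KO, a log2 fold change of 0.84 ± 0.10 (SE, adjusted p = 0.0635 in edgeR's quasi-likelihood test). It rose by 0.78 on the log2 scale with the GC correction (adjusted p = 0.00492 in edgeR). Without that correction, 0 genes of the 5 lists passed an adjusted p of 0.05 and a fold change of 1.3, against 0.00745% of all genes tested. With the correction, 7 of the 14 were higher at these limits (*Acp5*, *Ctsk*, *Dcstamp*, *Atp6v0d2*, *Oscar*, *Mmp9* and *Car2*), against 0.879% of all genes tested. The bone-resorbing protease gene *Ctsk*, the proton pump subunit gene *Atp6v0d2* and the carbonic anhydrase gene *Car2* rose by 0.75, 0.64 and 0.50 there. The log2 fold changes of 10 of the 14 were above 0 and of 4 below (*Siglec15*, *Slc4a2*, *Clcn7* and *Itgb3*), and after GC correction 13 were above and 1, *Siglec15*, below. *Siglec15*, which encodes a sialic acid-binding receptor, had 5.72, 9.74 and 6.14 CPM in WT and 7.19, 4.72 and 1.22 CPM in KO. Its groups overlapped, and its log2 fold change was -0.72 ± 0.48 (SE, adjusted p = 0.344 in edgeR) and -0.06 with the GC correction. *Itgb3*, an integrin gene of the list, had 160, 158 and 159 CPM in WT and 165, 152 and 156 CPM in KO, a log2 fold change of -0.012. The mean level of the list, as log2(CPM + 1), was 6.96 to 7.03 in WT and 7.20 to 7.34 in KO. All 7 osteoclast markers used above belong to this list, so its values and the marker sums are not separate evidence. The lists were chosen with earlier results of these data known, and the study names *Ctsk* and *Dcstamp* as top upregulated genes. The height of this list's median is therefore not independent evidence. Beside this list, 5 of 9 neutrophil markers tested lay above WT without overlap and 2 below, and 5 of 8 macrophage markers lay below. Of all genes tested, 16.9% lay above and 18.8% below without overlap. B cell marker sums were 27.0 to 30.4 CPM in WT and 31.7 to 37.3 CPM in KO, and dendritic cell marker sums 11.8 to 14.7 and 15.9 to 16.3 CPM. In each of these lists 1 marker lay above WT without overlap and 0 below. The part of cell composition in the values of this list was not tested.

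Of 10 tested genes listed as transcriptional repressors upstream of *Nfatc1*, 5 were lower and 0 higher at an unadjusted p under 0.05, against 13.2% of all genes lower. After GC correction 4 were lower and 0 higher, against 25.8% in either direction. The list includes *Prdm1*, which represses other repressors, so the list mixes opposite roles. All 5 genes with groups that did not overlap lay below WT, against 18.8% of all genes. The median was -0.28, and -0.17 with the GC correction. *Irf8*, a repressor of *Nfatc1* that RANKL lowers, had 80.6, 92.4 and 78.6 CPM in WT and 65.7, 68.2 and 51.1 CPM in KO, a log2 fold change of -0.44 ± 0.13 (SE, adjusted p = 0.147 in edgeR's quasi-likelihood test), and -0.37 with the GC correction. *Zbtb7a*, *Bcl6* and *Hdac7* had -0.58, -0.28 and -0.69, and *Prdm1*, which encodes Blimp1, a repressor of the other repressors, had 0.22. GC-corrected, these were -0.31, -0.23, -0.31 and 0.12. None of the list passed the limits in edgeR with or without the GC correction, against 0.0223% and 0.00745% of all genes. At an adjusted p under 0.05 and a fold change above 1.3 with the correction 1 was lower, against 0.879% in either direction. DESeq2 called 1 lower at the limits, against 1.12% of all genes in either direction.

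**Figure D4:**
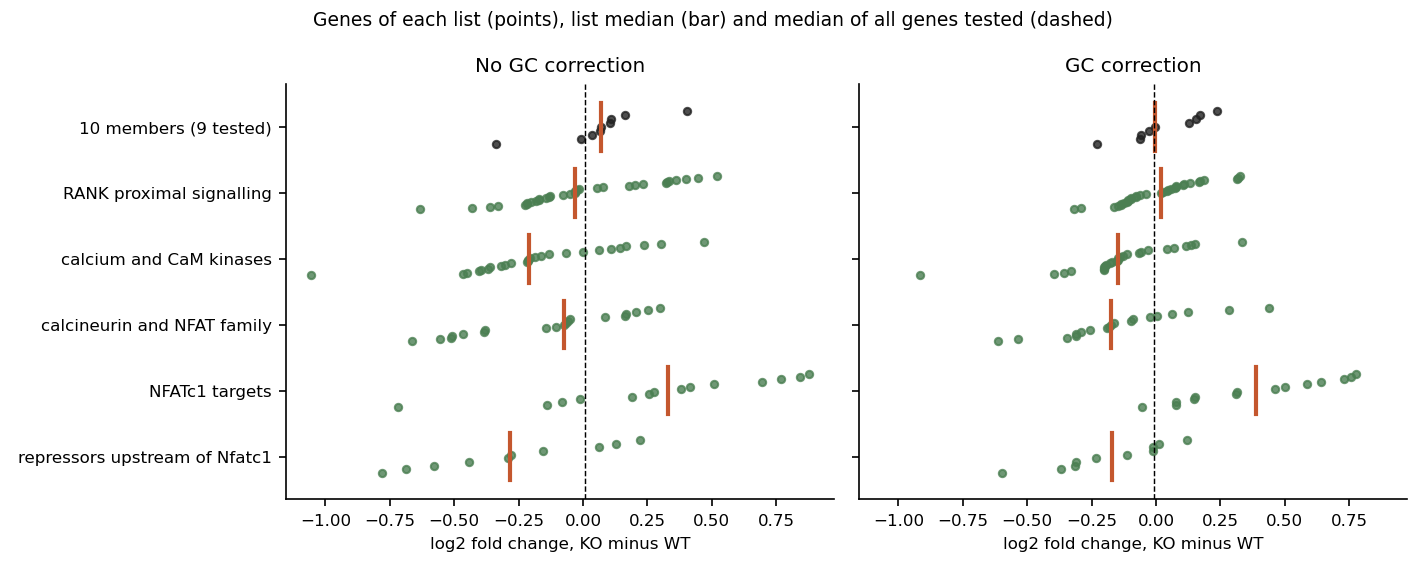
Log2 fold change (KO minus WT, horizontal axis) of each tested gene of the members and of the 5 pathway lists (points), with the list median (bar) and the median of all genes tested (dashed line), without (left) and with (right) the GC correction. The members lie around 0 in both panels, the NFATc1 target genes have medians of 0.33 and 0.39, and the repressors -0.28 and -0.17.

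The table's own pathway terms place 8 of the 10 members under osteoclast differentiation. Of that term 118 genes were tested, with a median log2 fold change of -0.12, and -0.09 with the GC correction. The 5 members under NF-kappa B signaling (*Tnfrsf11a*, *Traf6*, *Traf3*, *Map3k7* and *Tab2*) belong to a term with 86 tested genes and a median of -0.03. At an unadjusted p under 0.05, 42 genes of the first term and 28 of the second were counted in either direction, against 26.2% of all genes tested.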

How the data were processed

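RNA from 3 WT and 3 KO cultures was sequenced from stranded mRNA libraries. The authors deposited estimated counts per gene without normalization, partly not whole (25.1% to 26.6% of the detected genes in a library). The submitters' processing notes name fastp, HISAT2, StringTie, RSEM and GRCm39, without versions or roles. How the counting used strand is not given in the sources used here. The deposited genotype means were not used.

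Genotype groups follow the labels. The estimated counts were rounded, and R 4.3.3 was used with edgeR 4.0.16 (filterByExpr, TMM, glmQLFit with legacy = FALSE, glmQLFTest), DESeq2 1.42.0 and limma 3.58.1. CPM were computed on TMM-scaled totals of the genes tested. Benjamini-Hochberg adjustment covered all 13428 genes tested. A gene had to pass an adjusted p of 0.01 and a fold change of 1.3 together. No exact permutation test is given, since 3 against 3 libraries cannot go below 0.1. Standard errors are the log2 fold change over the root of the F statistic. Floors (3 counts) cover counting error only.

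For the GC correction, the deviation of each library from the gene mean was fitted against GC content (natural spline, 5 degrees of freedom) and used as an offset. GC content, lengths and overlaps are from the longest transcripts of GENCODE M21 on GRCm38, a different build from that of the counts. Alternatives were other scalings, filters and tests, a replicate block and each library left out in turn. Leaving out WT replicate 2 and KO replicate 3 together was chosen after seeing the data.

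The members, lists and tests were chosen with earlier results of these data known. All 10 members are named, and of each list up to 6 genes, those past the limits and then those with the lowest p, and the paralogs of the members. *Dtx3l*, *Src*, *Mmp9*, *Itgb3*, *Siglec15*, *Slc4a2*, *Clcn7* and the single marker genes were named after their values were seen. The values of 1 listed gene are not reported here. The fits were tested on simulated counts in which 200 genes were changed. Sums of T cell, stromal, and erythroid and megakaryocyte markers were 6.30 to 7.88, 15.0 to 20.3 and 107 to 112 CPM in WT and 5.40 to 6.90, 11.2 to 17.6 and 81.3 to 114 CPM in KO.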

Additional observations from a re-analysis of the deposited data

How the results depend on the processing

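No member passed the limits under any of 19 alternatives. The other 5 pathway lists, with 0 genes past the limits in edgeR, gave 6 with DESeq2, 1 with the GC correction, 8 with DESeq2 and the GC correction, and 3 (*Dcstamp*, *Ctsk* and *Atp6v0d2*) without WT replicate 2 and KO replicate 3 together. Over all genes tested, with 1 gene past the limits, the same settings gave 121, 3, 339 and 8, and leaving out 1 library gave 0 to 2 (0 without WT replicate 2, WT replicate 3 or KO replicate 2, and 2 without KO replicate 1). Leaving out 1 library gave 0 members and 0 pathway genes throughout. The GC correction with the replicate block gave 0, with an adjusted p of 0.0202 for *Dcstamp*. At an adjusted p under 0.05 it left 3 of the 7 NFATc1 target genes (*Dcstamp*, *Ctsk* and *Atp6v0d2*), against 0.253% of all genes. Of 171 log2 fold changes of members under alternatives, 17 changed sign, none of them past the test. With the GC correction, the GC correction with the replicate block, and DESeq2 with the GC correction, in this order, *Traf6* was at -0.0043, -0.0071 and -0.0037, *Map3k7* at -0.027, -0.026 and -0.027, and *Ppp3ca* at -0.064, -0.064 and -0.063. Without both libraries at the ends of the GC trend, *Traf6* was at -0.012 and *Ppp3ca* at -0.021. Leaving out 1 library, the range was -0.062 to 0.038 for *Tnfrsf11a* (0.0084 without WT replicate 2 and 0.038 without KO replicate 2), -0.061 to 0.13 for *Nfatc1* (-0.016 and -0.011 without WT replicates 1 and 3, -0.061 without KO replicate 1) and -0.053 to 0.13 for *Ppp3ca* (-0.053 without KO replicate 3). The cause of these changes was not tested. Same-numbered WT and KO libraries did not deviate together (r = -0.22, 0.08 and 0.17). With 3 libraries per genotype this cannot show whether they were handled together, and the sources used here do not say. With the replicate block as a term 0 members and 1 gene in all passed the limits, as without it. The 3 libraries per genotype and their spread limit the precision to the intervals given.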
